A study of Mus musculus with 2 samples.

Results

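The extracellular proteases of the matrix metalloproteinase (Mmp), Adam and Adamts families and their tissue inhibitors (Timp) were compared between innervated and denervated mouse calf muscle. The members were all genes on the array whose name begins with Mmp, Timp, Adam or Adamts followed by a number, which gave 72 of the 20701 genes on the array: 21 Mmp, 4 Timp, 29 Adam and 18 Adamts genes. Each gene was given the value of its brightest usable probe.

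Matrix metalloproteinases are zinc enzymes that cut collagens, proteoglycans, basement membrane proteins and growth factor carriers, and most are secreted as inactive precursors. The Timp proteins bind and block their active sites, and Timp3 also blocks several Adam and Adamts enzymes. Most Adam proteins sit in the cell membrane, where the active ones release the outer parts of cytokines, receptors and adhesion molecules, and several others act in fertilisation. Adamts enzymes are secreted, and their roles include trimming procollagen and cutting the large proteoglycans aggrecan and versican. In muscle these systems are known from matrix turnover around the fibres, satellite cell migration and leukocyte entry.

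RNA came from the gastrocnemius of male C57BL/6 wild-type mice that were 7 weeks old at the start and 9 weeks old at sampling. In the denervated group the muscle had been without its nerve for 14 days. The other group was labelled sham control in one field and control in another, so whether those mice were operated on is unclear from the labels. RNA from 6 mice was pooled in each group and each pool was hybridised to 1 single-colour array, so there is no replicate and no test, and every value below compares those 2 pools. In whole muscle, fewer cells of a type and less RNA per cell cannot be told apart.

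Signals are given as scaled signal, set so that the 75th percentile of each array is 100, and differences are log2 of the denervated over the control scaled signal. The error after ± combines the error that the scanner software gives each spot on the 2 arrays. It is technical, at a median of 0.20 over all genes, and does not hold the spread between mice. A gene was called measured when its probe was well above background and unsaturated on both arrays, which held for 47 of the 72 members and for 14994 of all 20701 genes. The marker genes of mature skeletal muscle were all measured, with Acta1 (skeletal actin) at a scaled signal of 60470 in the control and 41812 in the denervated pool.

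Of the 47 measured members, 3 (Timp1, Mmp3 and Mmp19) had a denervated signal at least 2 times the control signal. This is 6.38% of the members, against 7.04% of all measured genes. Another 5 were at least 2-fold lower (Timp3, Timp4, Adam1a, Adam3 and Adamts3), 10.6% against 8.42% of all measured genes. Both shares lie near the background. The median difference was 0.52 for the 11 measured Mmp genes, -0.73 for the 4 Timp genes, -0.35 for the 17 Adam genes and -0.35 for the 15 Adamts genes, beside -0.11 for all measured genes. The negative sign of the Adam and Adamts medians depended on the scaling: without scaling both became 0.08, while the median of all genes moved to 0.33. The Mmp median stayed above 0 under every scaling, and was -0.01 when all 21 genes, dim ones included, were counted. Values above 0 were found for 34.0% of the measured members, against 43.2% of all measured genes. Of the 31 members below 0, 14 lay between 0 and -0.43, the shift that scaling brings. The plot of every measured member by family shows the Mmp genes mostly to the right of the line at the median of all genes and the Adam and Adamts genes mostly to its left.

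**Figure D1:**
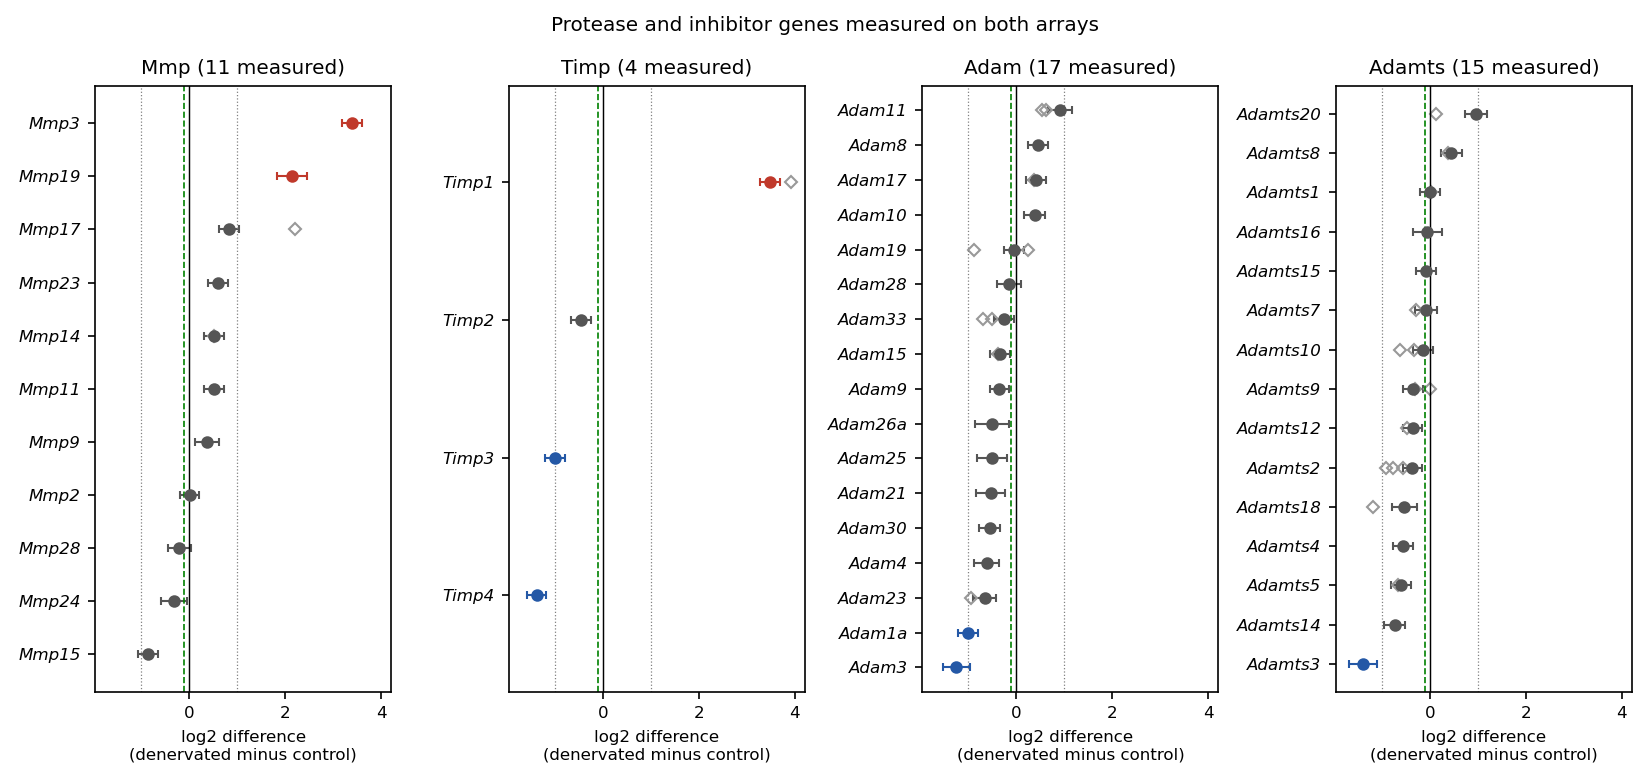
Log2 difference (denervated minus control, x axis) of the 47 measured genes, 1 panel per family; filled points are the brightest probe with its technical error as bars, open diamonds a gene's other measured probes, the dashed line the median of all genes (-0.11) and the dotted lines 2-fold. Timp1, Mmp3 and Mmp19 (red) lie past 2-fold on the right, and Timp3, Timp4, Adam1a, Adam3 and Adamts3 (blue) on the left.

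The letters upstream of the genes with the largest differences are shown to give their sequence context, together with those of Mmp13, a neighbour of Mmp3 that was not above background. The 250 bases before the RefSeq start are given 5′ to 3′ on the gene's strand, in build GRCm38.p6. Capitals mark every Ets word (AGGAAG or its reverse complement CTTCCT) and every AP-1 word (TGAGTCA or its reverse complement TGACTCA). The windows are chrX:20869916-20870165, chr9:7445572-7445821 and chr9:7272264-7272513, all on the plus strand.
Timp1: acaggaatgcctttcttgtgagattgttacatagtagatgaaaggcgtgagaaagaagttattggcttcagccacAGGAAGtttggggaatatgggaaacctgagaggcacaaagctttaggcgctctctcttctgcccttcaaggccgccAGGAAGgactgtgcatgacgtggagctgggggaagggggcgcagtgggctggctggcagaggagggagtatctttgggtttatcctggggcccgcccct
Mmp3: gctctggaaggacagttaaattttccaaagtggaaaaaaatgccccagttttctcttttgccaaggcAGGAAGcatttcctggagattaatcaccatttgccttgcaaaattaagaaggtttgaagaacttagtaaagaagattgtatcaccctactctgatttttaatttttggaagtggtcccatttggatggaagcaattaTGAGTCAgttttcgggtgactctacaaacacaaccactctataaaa
Mmp13: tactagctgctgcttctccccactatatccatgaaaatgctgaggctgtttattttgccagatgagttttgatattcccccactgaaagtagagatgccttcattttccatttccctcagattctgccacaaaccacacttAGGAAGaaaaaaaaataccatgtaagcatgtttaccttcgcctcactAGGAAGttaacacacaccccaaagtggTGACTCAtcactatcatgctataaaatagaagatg

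Timp1 held 2 Ets words, which began 175 and 99 bases before its start, and no AP-1 word. Mmp3 held 1 Ets word, 183 bases before its start, and Mmp13 held 2, at 109 and 62 bases. The AP-1 word began 46 bases before the start in Mmp3 and 35 bases before it in Mmp13. RefSeq windows were matched for 41 of the 72 members by symbol, in 46 windows, and for 6 of the 8 members past 2-fold. Either strand's form of the AP-1 word was in 8 of the 46 windows (17.4%), against 4.46% of all 32851 windows of that length. The Ets word, as AGGAAG or CTTCCT, was in 18 of them (39.1%), against 29.5% of all windows, and the 2 words share no letters in these 3 sequences. A word match describes the letters only: of the 8 members with the AP-1 word (Mmp1a, Mmp3, Mmp7, Mmp10, Mmp12, Mmp13, Adam19 and Adam29), Mmp3 was past 2-fold, Adam19 was measured and under 2-fold, and the other 6 were above background on neither array.

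The 4 Timp genes differed in direction. Timp1, the inducible inhibitor that is low in most resting adult tissues, had a scaled signal of 41.0 in the control and 459 in the denervated pool, an 11.2-fold difference (log2 3.48 ± 0.20). Its second probe went from 4.41 to 67.4, a log2 difference of 3.93, so both probes were far brighter in the denervated pool. The probes lie at chrX:20031508-20031566 and chrX:20029738-20029797 in mm8, the build of the scanner file, and share a transcript. Timp4, an inhibitor known for its expression in heart and muscle, was on the other side: 297 in the control and 114 in the denervated pool, 2.60-fold lower (log2 -1.38 ± 0.20, chr6:115211721-115211780).

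Timp3, which is held in the matrix and has the widest range of targets, had 3268 in the control and 1632 in the denervated pool, a log2 difference of -1.0 ± 0.20 (chr10:85778750-85778809). That value lies on the 2-fold line itself, and it ranged from -1.10 to -0.57 over the alternative settings. Timp2, which also takes part in the activation of pro-Mmp2 at the cell surface, had 5113 in the control and 3728 in the denervated pool (-0.46 ± 0.20, chr11:118117922-118117981). Timp1 was thus the 1 inhibitor with a higher signal in the denervated pool, and the other 3 had values below 0 under every setting tried. The size of the Timp2 value depended on the scaling. It was -0.07 with spike-in scaling and -0.02 without scaling, both inside its technical error.

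**Figure D2:**
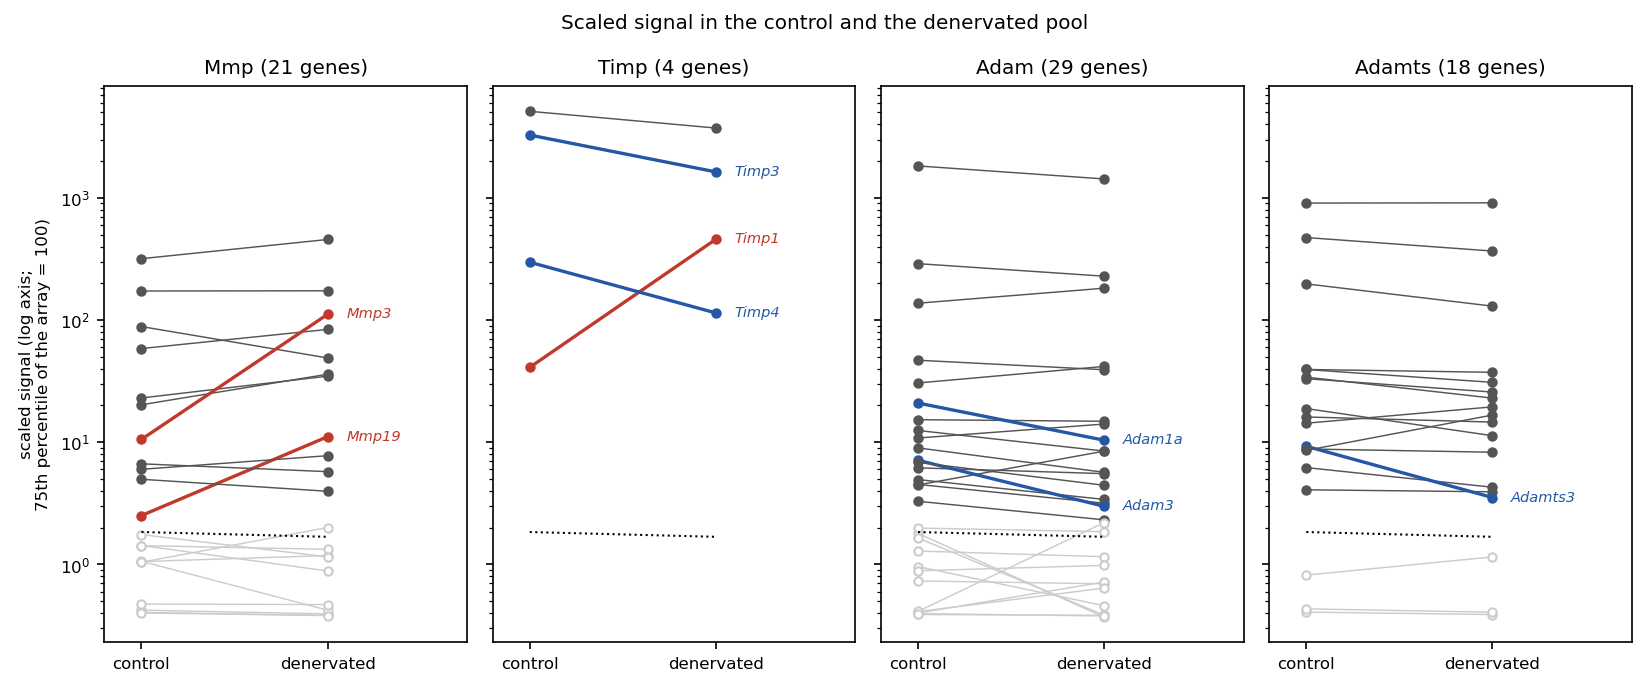
Scaled signal (log axis, 75th percentile of the array = 100) of all 72 genes in the control and the denervated pool, 1 line per gene and 1 panel per family; open grey points are genes not measured on both arrays and the dotted line is the lowest signal well above background. The Timp panel shows Timp1 going from 41.0 to 459 while Timp3 goes from 3268 to 1632 and Timp4 from 297 to 114.

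Among the Mmp genes, 2 were past 2-fold, both higher in the denervated pool, and none was 2-fold lower. Of the 11 measured, 8 were above 0, where 43.2% of all measured genes lay. Mmp3 (stromelysin-1), which cuts proteoglycans, laminin and fibronectin and activates other pro-Mmp proteins, had 10.6 in the control and 111 in the denervated pool. This is a 10.6-fold difference (log2 3.40 ± 0.21), read by 1 probe at chr9:7455751-7455810. Mmp19, a secreted enzyme that cuts basement membrane proteins, had 2.51 in the control and 11.1 in the denervated pool (log2 2.14 ± 0.31, chr10:128202114-128202173). Its control signal was 1.36 times the lowest signal that passed as above background, and with another background correction (normexp) its difference was 0.55 and no longer past 2-fold. Mmp3 kept 2.61 under that correction.

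The gelatinases, which cut denatured collagen and type IV collagen, showed small differences. Mmp2 had 173 in the control and 174 in the denervated pool, a log2 difference of 0.01 ± 0.20, which is inside its technical error. Mmp9, the gelatinase best known from leukocytes, had 6.01 and 7.76 (0.37 ± 0.24) on its brighter probe, a value that turned to -0.12 with normexp background correction. A second Mmp9 probe was printed as 10 spots per array, of which 9 could be used. These 9 spots ran from 0.965 through a median of 1.14 to 2.22 in the control and from 2.03 through 2.44 to 2.76 in the denervated pool, so the ranges overlap at their ends. On that probe 1 of the 9 spots was above background in the control and all 9 in the denervated pool, a difference of at least 1.30-fold, with an SD over spots of 0.43. Such bounds set the brighter pool's signal against the lowest signal well above background on the other array, or the probe's own where higher.

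The membrane-type enzymes went both ways. Mmp14, which activates pro-Mmp2 and cuts fibrillar collagen, had 318 in the control and 457 in the denervated pool (0.52 ± 0.20), and its second probe gave 0.51. Mmp15, another transmembrane enzyme, had 88.5 and 49.0 (-0.85 ± 0.20), the lowest value among the measured Mmp genes. Mmp17, which is anchored by a lipid, had 20.3 and 36.0 (0.83 ± 0.21), but its second, dimmer probe went from 2.66 to 12.3, a log2 difference of 2.21. Its 2 probes therefore lie on different sides of 2-fold. Mmp24 had 4.98 and 3.97 (-0.33 ± 0.27), close to background. Mmp16 and Mmp25 were above background on neither array.

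Of the remaining measured enzymes, Mmp11 (stromelysin-3) had 58.5 in the control and 83.9 in the denervated pool (0.52 ± 0.20) and Mmp23 had 23.0 and 34.8 (0.59 ± 0.21). Mmp28 had 6.66 and 5.75 (-0.21 ± 0.24). The classical collagenases, which cut triple-helical collagen, gave no measured gene. Mmp1a and Mmp13 were above background on neither array, and Mmp8, the neutrophil collagenase, had 1.04 in the control and 2.01 in the denervated pool, where it was above background (at least 1.09-fold). Among all genes on the array 1.84% were above background in the denervated pool only and 4.41% in the control pool only. Among the 72 members these were 2 genes (Mmp8 and Adam5) and 0 genes. Another 23 members (31.9%) were above background on neither array, against 21.2% of all genes.

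On chromosome 9, Mmp3 lies in a row of 8 Mmp genes that have member probes on the array. In probe order these are Mmp13, Mmp12, Mmp3, Mmp1a, Mmp10, Mmp8, Mmp20 and Mmp7, whose probes span 415 kb (chr9:7282762-7697370, mm8). Within that row Mmp3 was the 1 gene measured on both arrays, Mmp8 was above background in the denervated pool and the other 6 were above background on neither. The AP-1 word was in the upstream windows of 6 of these 8 genes, Mmp3 among them. Mmp12 (macrophage elastase) had 0.422 and 0.394 and Mmp13 had 0.405 and 0.383, values at which no difference can be read. Mmp10 (stromelysin-2), the closest relative of Mmp3, had 1.06 and 1.18.

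Of the 29 Adam genes, 17 were measured, none was 2-fold higher and 2 were 2-fold lower. Adam17 releases tumour necrosis factor and ligands of the epidermal growth factor receptor. It had 137 in the control and 182 in the denervated pool (0.41 ± 0.20), and its second probe gave 0.37. Adam10, the main enzyme that cuts Notch receptors at the cell surface, had 10.8 and 14.1 (0.38 ± 0.22). Adam8, known from leukocytes, had 30.6 and 41.8 (0.45 ± 0.21). Adam9 had 1826 and 1429 (-0.35 ± 0.20), Adam15 had 290 and 229 (-0.34 ± 0.20) and Adam33 had 46.9 and 39.2 (-0.26 ± 0.21).

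Of the 8 measured genes among the widely expressed proteolytic Adam genes, 3 were above 0 and 5 below, with a median of -0.10. This division depended on the scaling: all 5 lower values lay within the scaling shift, and with spike-in scaling or none all 8 were above 0 (Adam9 at 0.04 and 0.08, Adam15 at 0.05 and 0.09). The 3 probes of Adam19, an enzyme that cuts neuregulin, disagreed in sign: -0.04 on the brightest, 0.24 on the second and -0.89 on the dimmest. Adam12, known from fusing myoblasts and regenerating muscle, was above background on neither array (0.733 and 0.694). Adam28, a leukocyte enzyme, had 6.17 and 5.54 (-0.16 ± 0.24).

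Among the Adam proteins of the nervous system that lack protease activity, Adam11 had 4.48 in the control and 8.45 in the denervated pool (0.92 ± 0.25). Its other probes gave 0.62 and 0.54, so all 3 pointed the same way. The Adam11 signal was dim, with a control value 2.43 times the lowest detected signal. With normexp background correction its difference was 0.12. Adam23 had 8.99 and 5.68 (-0.66 ± 0.25), with -0.95 on its other measured probe, and Adam22 was above background on neither array.

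The Adam genes known mainly from the male reproductive tract formed the other part of the family: 17 genes, of which 7 were measured, all 7 below 0 with values from -1.25 to -0.50. The size of these values depended on the scaling. Without scaling, Adam4, Adam21, Adam25, Adam26a and Adam30 lay between -0.19 and -0.07, inside their technical errors. Adam3 was then at -0.82 and Adam1a at -0.58. Adam3, a sperm surface protein, had 7.12 in the control and 2.99 in the denervated pool (-1.25 ± 0.29, chr8:26142800-26142859). Adam1a, needed for sperm protein assembly, had 20.9 and 10.4 (-1.01 ± 0.21, chr5:121779608-121779667). Its second probe had 5.58 and 2.43 and was above background in the control only. The bound for that probe, 2.30-fold lower, rests on its own denervated signal and so is the ratio of its 2 signals (log2 -1.20 ± 0.39). Adam5 counts as above background in the denervated pool only through 1 probe, with 0.413 and 2.20 (at least 1.20-fold). Its brighter probe, with 1.22 and 1.61, was above background on neither array.

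The signals of this reproductive group were low in both pools, at most 20.9. All genes with a mean scaled signal under 10 had a median of -0.35, against -0.10 for those from 10 to 100 and -0.02 for those of 100 or more. Of 8 testis marker genes, 4 (Odf1, Acrv1, Zpbp and Ldhc) were above background on neither array, and the 4 measured ones were all below 0 with a median of -0.35. Their summed scaled signal was 37.4 in the control and 27.4 in the denervated pool. The part of dim signal in the values of this group was not tested.

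Of the 18 Adamts genes, 15 were measured, none was 2-fold higher and 1 was 2-fold lower. Adamts3, one of the enzymes that remove the amino-terminal propeptide of fibrillar procollagens, had 9.27 in the control and 3.53 in the denervated pool (-1.39 ± 0.29, chr5:90750328-90750387). A second Adamts3 probe was above background in the control only, with 2.67 and 0.523 (at least 1.58-fold lower), and its remaining probe on neither array. The other enzymes of this class were under 2-fold: Adamts14 had 18.9 and 11.3 (-0.74 ± 0.21) and Adamts2 had 474 and 367 (-0.37 ± 0.20). The sign of the Adamts2 value depended on the scaling, as it was 0.02 with spike-in scaling and 0.07 without scaling. The 4 probes of Adamts2 all lay below 0, from -0.91 to -0.37. The 3 procollagen enzymes had a median of -0.74. Among the fibrillar collagens, whose precursors such enzymes trim, Col1a1 had a difference of 0.08 and Col3a1 of 0.63.

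The 7 enzymes that cut aggrecan and versican were all measured and had a median of -0.08. Adamts1 had 907 in the control and 911 in the denervated pool (0.01 ± 0.20), and its second probe gave 0.02. Adamts5 had 198 and 130 (-0.60 ± 0.20), with -0.67 on its second probe, and Adamts4 had 34.1 and 23.0 (-0.57 ± 0.21). Adamts1 and Adamts5 are neighbours, their probes spanning 67.7 kb on chromosome 16 (chr16:85683995-85751687, mm8), and their differences stood 0.01 against -0.60. Adamts15 and Adamts8 are neighbours as well, over 63.2 kb on chromosome 9, with 39.4 and 37.4 for Adamts15 (-0.08 ± 0.21) and 14.3 and 19.5 for Adamts8 (0.45 ± 0.21).

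Adamts20 had 8.58 and 16.7 (0.96 ± 0.22), just short of 2-fold, but its second measured probe gave 0.13. Adamts9 had 39.4 and 30.9 (-0.35 ± 0.21), and its 3 probes differed in sign, the dimmest giving 0.01. Adamts18, of the remaining genes, had 6.21 and 4.28 (-0.53 ± 0.26) on one probe and -1.19 on the other, which lie on different sides of 2-fold. Adamts7 and Adamts12, which cut cartilage oligomeric matrix protein, had -0.09 ± 0.22 and -0.36 ± 0.21. Adamts10 had -0.14 ± 0.21 and Adamts16 -0.05 ± 0.30. Adamts6, Adamts13 (which cuts von Willebrand factor) and Adamts19 were above background on neither array.

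Over the 19 members with at least 2 measured probes, 17 had all probes on the same side of 0, and the median range between a gene's probes was 0.35, beside a median technical error of 0.20 over all genes and larger errors on some of the dim probes compared. Adam19 and Adamts9 differed in sign, and Mmp17 and Adamts18 in the side of 2-fold. Of the 8 members past 2-fold, Timp1 alone had a second probe that was measured on both arrays.

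Genes that act with the proteases were described from 4 lists. Of 24 genes of the plasminogen system, proprotein convertases and other protease inhibitors, 18 were measured, 1 was 2-fold higher and 1 was 2-fold lower (median 0.12). Lcn2, whose protein binds Mmp9, had 2.93 in the control and 16.8 in the denervated pool (2.52 ± 0.31). The control value of Lcn2 was close to background, where the lowest passing signal was 1.84. Serpine2 (protease nexin-1), an inhibitor of thrombin and plasminogen activators, had 312 and 116 (-1.43 ± 0.20), and A2m, a broad protease trap, had a difference of -0.89. Pzp, a relative of A2m, had 0.492 and 6.09 and was above background in the denervated pool only.

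Of 25 collagen and basement membrane genes on the array all were measured, 1 was 2-fold higher and none was 2-fold lower (median -0.14). Col18a1, the source of endostatin, had 114 in the control and 314 in the denervated pool (1.46 ± 0.20), Col14a1 had 0.87 and Lamc1, a laminin chain, had -0.75. Of 21 proteoglycan and Adamts-like genes on the array, 18 were measured, 3 were 2-fold higher and 2 were 2-fold lower (median 0.12). Adamtsl4, a microfibril-associated protein that resembles the Adamts enzymes but has no protease domain, had 79.3 and 14.4 (-2.46 ± 0.21). Adamtsl2 had 8.31 and 3.03 (-1.46 ± 0.32). Has1, a hyaluronan synthase, had 3.52 and 9.33 (1.41 ± 0.28). The dimmer values of Adamtsl2 and Has1 were close to background, where the lowest passing signal was 1.84 in the control and 1.68 in the denervated pool.

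Of 31 regulators and shed substrates of Adam10 and Adam17, 27 were measured, 4 were 2-fold higher and 1 was 2-fold lower (median -0.21). The tumour necrosis factor receptor Tnfrsf1a had 450 in the control and 1205 in the denervated pool (1.42 ± 0.20). Tnfrsf1b had 5.65 and 29.5 (2.39 ± 0.23), but another of its probes gave 0.06. The Notch ligand Dll1 had 28.4 and 121 (2.09 ± 0.21). These counts stand beside 7.04% and 8.42% of all genes past 2-fold in each direction, and the plot of lists shows the spread of each one around the median of all genes.

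**Figure D3:**
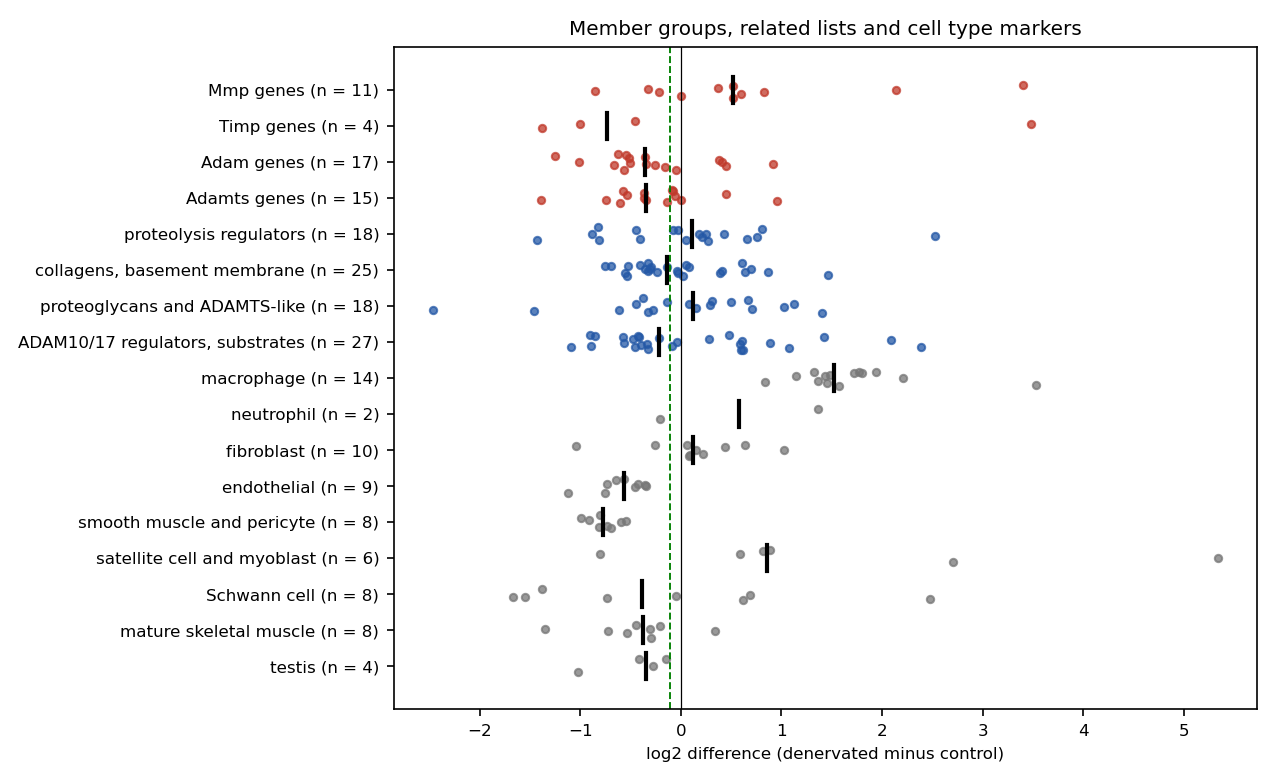
Log2 difference (denervated minus control, x axis) of the measured genes of the 4 families (red), the 4 related lists (blue) and cell type marker lists (grey); each point is 1 gene, the black bar the list's median and the dashed line the median of all genes. The 14 macrophage markers all lie above 0 (median 1.53) and the 9 endothelial and 8 smooth muscle markers all below it. The endothelial markers Tek (-0.342), Cldn5 (-0.351) and Pecam1 (-0.428) lie below 0 by less than the scaling shift of 0.432.

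The pools differed in markers of several cell types that also express members of these families. All 14 measured macrophage markers were above 0 and 13 of them past 2-fold, with a summed scaled signal of 2135 in the control and 6100 in the denervated pool. Of 9 neutrophil markers on the array, 4 (Ngp, Camp, Elane and Cxcr2) were above background on neither array and 3 in the denervated pool only. Of these 3, S100a8 had 2.34 and 704, while Ltf (0.937 and 1.74) and Retnlg (1.26 and 2.62) stayed close to background. The 2 measured neutrophil markers went opposite ways: S100a9 had 16.8 and 43.5 (1.37 ± 0.21) and Mpo had 4.81 and 4.18 (-0.20 ± 0.28). The 9 endothelial markers were all below 0 (median -0.56), with a summed signal of 3309 and 2048. Among them Tek (-0.342), Cldn5 (-0.351) and Pecam1 (-0.428) lie within the scaling shift of 0.432. The 8 smooth muscle and pericyte markers were all below 0 (median -0.77), with 42002 and 28474. The 10 fibroblast markers had a median of 0.12, with 19889 and 23236.

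Of 7 satellite cell and myoblast markers 6 were measured, with a median of 0.85 and a summed signal of 968 and 4140. Most of that sum's difference came from Myog (53.6 and 2166) and Myod1 (80.6 and 526), transcription factors of myogenic differentiation that muscle fibres can also express. Pax7, the marker of satellite cells themselves, had 21.7 and 12.4 (-0.80), and Myf5 was above background on neither array. The 8 Schwann cell markers had a median of -0.39, with 1364 and 786. Of the 8 mature skeletal muscle markers, 1 was above 0 and 7 were below. Their median was -0.37, with a summed signal of 311896 and 236772. Timp1, Mmp3 and Mmp19 were higher in the pool with more macrophage marker signal. Timp3, Timp4 and Adamts3 were lower in the pool with less endothelial, smooth muscle, Schwann cell and mature skeletal muscle marker signal. The part of these cell types in those differences was not tested. The medians of the Schwann cell, mature skeletal muscle and testis lists lie between 0 and -0.43 and so within the scaling shift. The same holds for the collagen and the Adam10 and Adam17 lists.

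The plot of settings shows how far the 8 members past 2-fold moved with the processing. Timp1 and Mmp3 were past 2-fold under all 13 alternatives, with ranges of 3.22 to 3.92 and 2.61 to 3.83. The 5 lower members kept their sign under every alternative that measured them (the stricter filter on dim probes dropped Mmp19, Adam3 and Adamts3). Without scaling all 5 were under 2-fold: Timp3 at -0.57, Adam1a at -0.58, Adam3 at -0.82, Timp4 at -0.95 and Adamts3 at -0.96. Median scaling put Timp3 at -0.95 and Adam1a at -0.96. Both were also under 2-fold with quantile normalization, loess centring, spike-in scaling and normexp. Normexp put Adam3 at -0.70 and Adamts3 at -0.80. Adam3 was also under 2-fold with quantile normalization, loess centring and spike-in scaling, and Timp4 with spike-in scaling (-0.99).

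**Figure D4:**
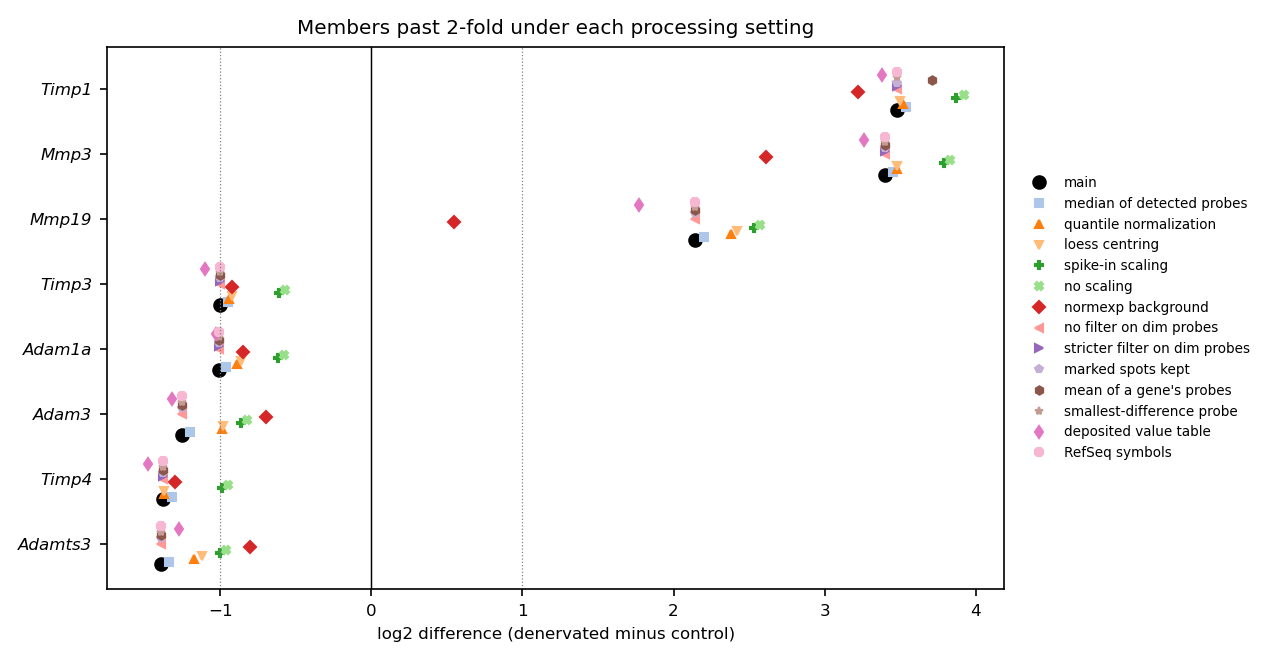
Log2 difference (denervated minus control, x axis) of the 8 genes past 2-fold under the main processing (black) and each alternative (coloured markers); dotted lines mark 2-fold. Timp1 and Mmp3 stay far to the right, Mmp19 falls to 0.55 with normexp background correction, and the 5 lower genes move towards 0 without scaling.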

How the data were processed

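RNA of 2 pools was hybridised to 1 single-colour Agilent array each (1.65 µg labelled cRNA, per the labels' protocols). The authors deposited the scanner intensity of every spot, extracted with Feature Extraction 9.5.3.1 per the file headers, which subtracts background, gives an error per spot (with a preset multiplicative error of 10%) and places probes on mm8. A deposited value table holds a score, found here to be the processed intensity times 100 over the 75th percentile of all spots. It was used as an alternative.

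Control spots and spots marked as outliers were left out (1 member spot per array), and repeated spots were averaged. Each array's processed intensities were scaled to their 75th percentile (788 in the control and 1063 in the denervated pool, over 41174 probes). A gene took the brightest of its measured probes, or, where none was measured, of those above background on 1 array. The 72 members had 124 probes, of which 96 matched a RefSeq accession. Gene symbols are those of the array design, and 1 has since changed (Adam6, now Adam6a). Of the probes on each array, 70.9% (control) and 68.4% (denervated) were well above background. The number of arrays limits the precision, and no p-value was computed. The method was also run on simulated data, made from the control array with its background and outlier flags kept. Such data cannot test the filter on dim probes or the background correction. Numpy 2.4.6, pandas 2.3.3 and limma 3.58.1 (normexp) were used.

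All Timp genes, members past 2-fold, the 3 brightest of each family, members whose probes disagree and the 3 largest differences of each related list were named, with others where a role class was described. The members and lists were chosen with earlier results of these data known, and the split of the Adam genes by role was made after their values were seen, in place of one by zinc motif, since no protein sequences were used here. Chromosomal neighbours and the motif counts were also chosen after values were seen. Alternatives changed the scaling, the background correction, the filter on dim probes, marked spots, the choice of probe, the source of values and the gene symbols.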

Additional observations from a re-analysis of the deposited data

How the results depend on the processing

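With 1 array per group no array could be left out, and no paired analysis was possible because each group has a single pool. The 3 higher members became 4 with median scaling, 4 with the mean of a gene's probes, 5 with quantile normalization and 5 with loess centring. They became 6 with spike-in scaling and 7 without scaling, but 2 with normexp and 2 with the stricter filter on dim probes. The 5 lower members became 3 with median scaling, 2 with quantile normalization, 2 with loess, 1 with spike-in scaling, 0 without scaling, 1 with normexp, 9 without the filter on dim probes and 3 with a filter at 4 times the lowest detected signal. Spike-in scaling moved all genes by 0.39 and no scaling by 0.43, which changed the medians to 0.04 and 0.08 (Adam), 0.04 and 0.08 (Adamts), 0.91 and 0.95 (Mmp) and -0.34 and -0.30 (Timp). Among all genes the shares past 2-fold became 14.3% higher and 4.12% lower with spike-ins, and 15.7% and 3.83% without scaling, from 7.04% and 8.42%. Without the dim filter, all 72 genes gave medians of -0.12 (Adamts) and -0.01 (Mmp). Over all alternatives, 127 values for single genes moved and 469 did not move by more than their technical error, 47 each with spike-in scaling and without scaling. Values near background, such as Mmp19, carry the largest dependence on the background correction tried here: it went from 2.14 to 0.55 with normexp and to 1.77 in the deposited value table.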
